A study of Homo sapiens with 14 samples.

Results

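The loci of 9 Eph receptor genes, EPHA1, EPHA2, EPHA3, EPHA4, EPHA7, EPHB1, EPHB2, EPHB3 and EPHB4, were examined for peaks of the BAF chromatin remodelling complex and of the transcription factor SOX2 in naïve and primed human embryonic stem cells (hESCs). They are 9 of the 14 human Eph receptor genes and 9 of 20033 protein-coding genes, and each locus was taken as the gene body in GENCODE release 44 (hg38) with 60 kb on each side, 2.56 Mb in all. The family was selected on 1 measured value, a primed-only BAF site with a SOX2 peak near EPHA2, so that this site is described here without a test and its paralogues serve as the contrast. No window of these genes overlapped that of another of the 9, and the EPHB2 window overlapped that of EPHA8.

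All cells were WIBR3, an established hESC line, grown on mouse embryonic fibroblast feeders either in conventional serum-containing medium with FGF2 (primed) or in the 5i/L/A medium (naïve). The antibodies recognised BRG1 (SMARCA4) and BRM (SMARCA2), the alternative ATPases of the BAF complex, BAF155 (SMARCC1), a scaffold subunit, and SOX2. Of the 14 samples, 4 were input controls and 10 came with a peak list. Within each state the pair of SOX2 lists was identical in position and was treated as 1 sample. The sources used here do not say whether the 2 SOX2 libraries of a state were pooled before peaks were called. Every other group has 1 library, the spread between cultures could not be measured for any group, and the comparisons are within a single line. The lists held from 167 peaks (primed BRM) to 62338 peaks (naïve BAF155). The study's read totals were not used here, but by them the primed BRG1 library, with the shorter list of 15611 peaks against 57884, was not the shallower of the BRG1 pair. A missing peak is a value below the authors' threshold. The 95% intervals of shares (exact Clopper-Pearson) cover counting error only.

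Eph receptors are the largest family of receptor tyrosine kinases and bind ephrins, which are held on the surface of neighbouring cells, so that receptor and ligand signal at cell contacts, often in both directions. A-class receptors mainly bind ephrin-A ligands, which carry a GPI anchor, and B-class receptors mainly bind the transmembrane ephrin-B ligands. The family is known for guiding axons and for keeping cell populations apart at tissue boundaries, and EPHA2 and EPHB4 are also known from epithelia and from veins, respectively.

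The sequences below are the central 200 bp of the SOX2 peak of highest fold at 5 of the loci, on the plus strand of hg38. These are the loci at which a SOX2 peak and a primed-only BAF region were found together. Capitals mark the SOX core (CATTGT or CTTTGT, either strand) and the OCT4-SOX2 composite element, a longer site in which a SOX core adjoins an octamer, with up to 2 mismatches. The EPHA2 sequence is at chr1:16116006-16116205, the EPHB3 sequence at chr3:184570619-184570818, the EPHA4 sequence at chr2:221570001-221570200, the EPHB1 sequence at chr3:135216735-135216934 and the EPHA3 sequence at chr3:89165712-89165911.
EPHA2: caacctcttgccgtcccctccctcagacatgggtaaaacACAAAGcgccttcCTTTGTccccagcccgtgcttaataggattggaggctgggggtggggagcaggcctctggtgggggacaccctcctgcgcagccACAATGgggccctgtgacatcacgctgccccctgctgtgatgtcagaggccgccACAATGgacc
EPHB3: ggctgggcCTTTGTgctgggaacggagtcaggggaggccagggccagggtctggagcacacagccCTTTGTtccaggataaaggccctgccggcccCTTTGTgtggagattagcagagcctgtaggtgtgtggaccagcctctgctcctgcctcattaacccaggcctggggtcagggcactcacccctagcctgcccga
EPHA4: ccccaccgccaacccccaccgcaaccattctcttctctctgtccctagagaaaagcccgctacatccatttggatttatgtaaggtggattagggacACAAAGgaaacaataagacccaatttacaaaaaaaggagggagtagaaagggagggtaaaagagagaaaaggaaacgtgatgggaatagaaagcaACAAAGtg
EPHB1: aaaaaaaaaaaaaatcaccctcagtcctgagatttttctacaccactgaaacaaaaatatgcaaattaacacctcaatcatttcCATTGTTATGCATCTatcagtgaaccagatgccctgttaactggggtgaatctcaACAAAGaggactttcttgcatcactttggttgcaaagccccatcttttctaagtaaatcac
EPHA3: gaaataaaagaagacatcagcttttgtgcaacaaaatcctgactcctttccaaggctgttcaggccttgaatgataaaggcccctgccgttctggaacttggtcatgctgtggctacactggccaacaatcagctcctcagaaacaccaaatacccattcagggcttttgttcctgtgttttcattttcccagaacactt
The EPHA2 sequence held 4 SOX cores, the EPHB3 sequence 3, and the EPHA4 and EPHB1 sequences 2 each. The EPHA3 sequence held none. The SOX2 peak of EPHB4, in a BAF region common to both states, is not shown, and its central 200 bp held neither a SOX core nor a composite element. In EPHB1 1 of the SOX cores lay inside the composite element. The EPHA2 and EPHB3 sequences were rich in G and C (62.5% and 63.5%), whereas those of EPHA4, EPHA3 and EPHB1 held 45%, 45% and 36.5%.

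To place the EPHA2 site, its position was compared with the annotation. The primed-only BAF region lay on chromosome 1 from 16115714 to 16116467 (754 bp). EPHA2 is transcribed from the minus strand, from 16156069 down to 16124337, so the region was intergenic, 8.25 kb past the 3′ end of the gene and 40 kb from its main 5′ end. The nearest annotated start site, 17.5 kb away, was that of a short EPHA2 transcript (EPHA2-203). Both primed BAF antibodies gave a peak there, with a fold over input of 6.26 for BRG1 (rank 264 of 15611) and 9.64 for BAF155 (rank 71 of 58352). The SOX2 peak inside it (16115872 to 16116341) had a fold of 36.8, rank 2 of 9290. The naïve BRG1, BAF155, BRM and SOX2 lists held no peak there. These values chose the locus and are given as a description.

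Elsewhere in the EPHA2 window the peaks were weaker. Its other 8 primed-only regions had no SOX2 peak and folds from 2.6 to 4.36. Of the 9 primed-only regions at EPHA2, 6 lay past the 3′ end, 2 upstream and 1 in the gene body. The 2 naïve-only regions lay in the gene body (16143813 to 16144136 and 16146469 to 16147692). The second adjoined a common region and overlapped its primed BRG1 peak (fold 3.4), so that 1 naïve-only region was left when an overlap of 1 bp sufficed. In addition, the 8 common regions included the main 5′ end. The naïve BRM list gave 4 peaks at EPHA2, of which the highest (fold 3.86, 16154432 to 16155032) lay 1.34 kb inside the gene, and 2 lay at promoters of the neighbouring genes FAM131C and ARHGEF19.

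**Figure D1:**
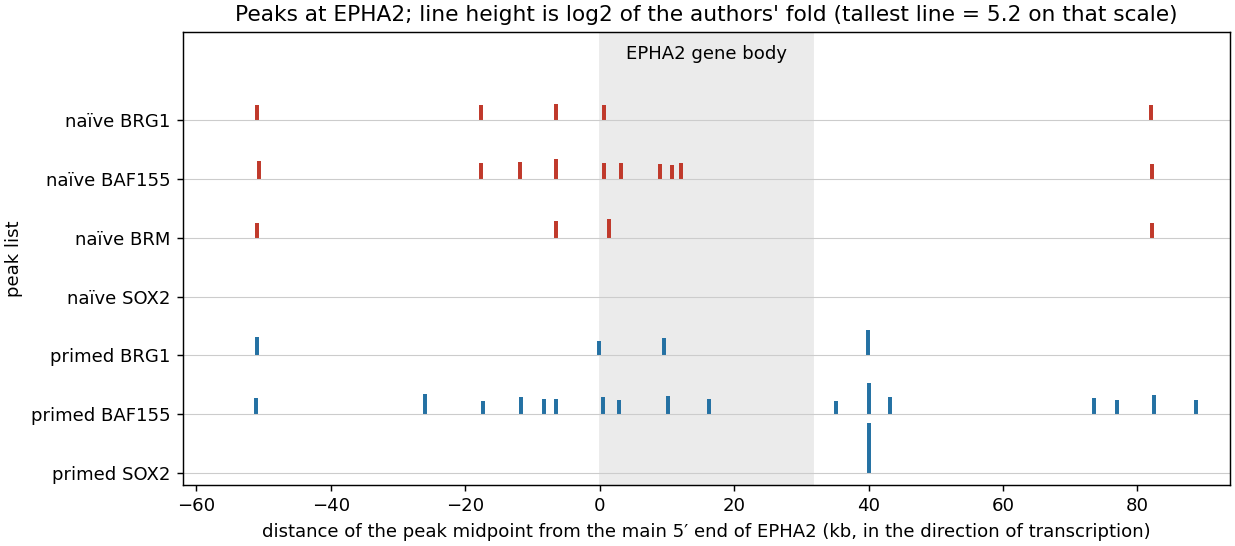
Peaks of each list in the EPHA2 window against the distance of the peak midpoint from the main 5′ end in kb, with naïve lists in red and primed lists in blue and line height as log2 of the authors' fold. The primed SOX2, BAF155 and BRG1 lines coincide 40 kb from the 5′ end, past the gene body (grey), and no naïve line stands there.

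To ask how EPHA2 compared with its paralogues, the peaks of every list were counted in each window. Over the 9 windows there were 63 naïve BRG1 peaks, 68 naïve BAF155 peaks, 20 naïve BRM peaks and 0 naïve SOX2 peaks, against 38 primed BRG1 peaks, 100 primed BAF155 peaks and 15 primed SOX2 peaks. Primed BRM gave 0 peaks in all 9 windows. Of the protein-coding gene windows, 13.2% held a naïve SOX2 peak, so its lack at 9 Eph loci is near what the short list gives. The primed SOX2 list reached 6 of the 9 windows against 42.6% of all windows, and the naïve BRM list reached 8 of 9 against 70.2%. Windows differ in length, and the share of windows with a peak rises with length.

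**Figure D2:**
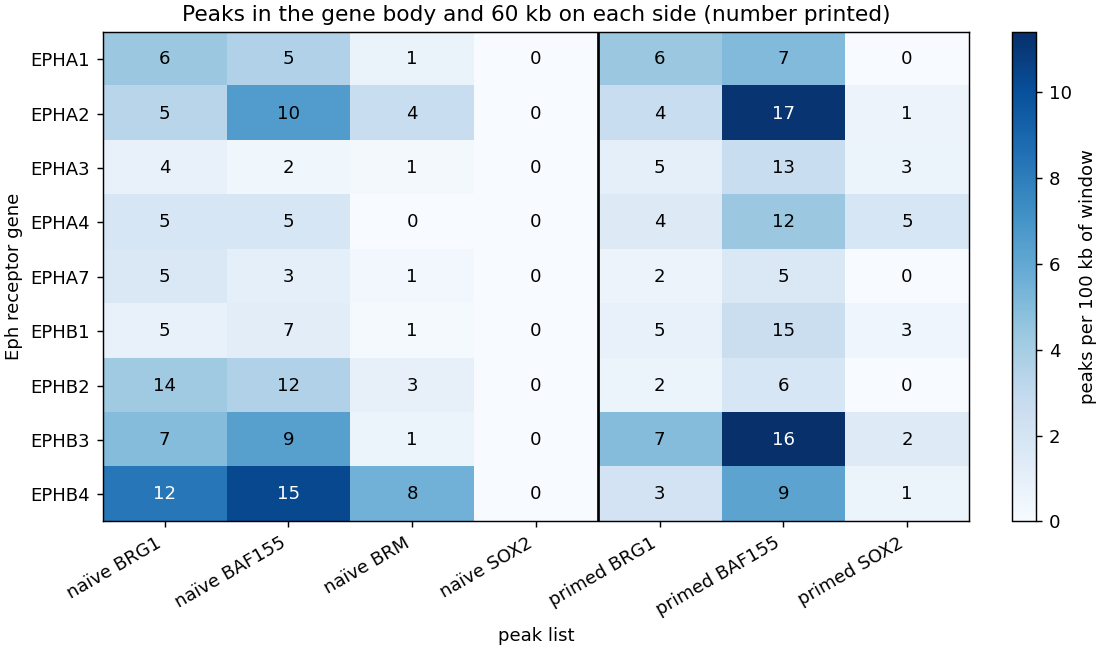
Number of peaks of each list (printed) in the window of each Eph receptor gene, shaded by peaks per 100 kb. Primed BAF155 was densest at EPHB3 (11.4 per 100 kb) and EPHA2 (11.2 per 100 kb), and the naïve SOX2 column is 0 throughout.

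Among A-class receptors, EPHA4, a receptor that binds ligands of both classes, had the most SOX2 peaks. Its window held 5 primed SOX2 peaks, with folds of 15.0, 11.9, 10.3, 6.51 and 5.17. The strongest 3 lay in primed-only BAF regions with peaks of both primed BAF antibodies, and the strongest of all (221569909 to 221570294) was 2.2 kb inside the gene and 0.62 kb from the start of another EPHA4 transcript. The weakest lay 4.42 kb upstream of the main 5′ end, outside any BAF region, and held the composite element with 1 mismatch. EPHA4 had no naïve BRM peak, the only such window of the 9.

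EPHA3, whose window of 495 kb is the second longest after that of EPHB1, held 3 primed SOX2 peaks, with folds of 13.9, 5.48 and 4.57. The highest (89165600 to 89166024) and the lowest lay in introns within primed-only BAF regions, 58.2 kb and 139 kb into the gene. All 9 of the state-specific BAF regions at EPHA3 were primed-only and none was naïve-only. The strongest naïve BRM peak of EPHA3 (fold 4.14) lay in a common region 7.13 kb into the gene.

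EPHA1 and EPHA7 had no SOX2 peak in either state. EPHA1 had 4 primed-only and 3 naïve-only regions, and its strongest primed-only region (143410622 to 143410976, fold 5.93) lay 1.94 kb upstream of the gene with peaks of both primed BAF antibodies. EPHA1's single naïve BRM peak (fold 3.37) lay at the promoter of ZYX, which encodes a protein of focal adhesions. EPHA7 had the fewest BAF regions, 7, of which 2 were primed-only and 2 naïve-only. Its 1 naïve BRM peak (fold 3.13) lay in a naïve-only region 41.6 kb past the 3′ end, with naïve BRG1 and BAF155.

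Among B-class receptors, EPHB3 had counts close to those of EPHA2. Its window held 8 primed-only, 3 naïve-only and 8 common regions, and its SOX2 peak of highest fold (184570509 to 184570929, fold 13.4) lay in an intron 8.93 kb into the gene. The primed-only region at that peak came from BAF155 alone (fold 2.95), without a primed BRG1 peak. A weaker SOX2 peak (fold 4.57), 11.6 kb upstream, lay outside any BAF region. The strongest primed-only region at EPHB3 (184558642 to 184559446, fold 5.40) lay 2.74 kb upstream and had no SOX2 peak.

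EPHB1 had the most primed-only regions, 11, all within the gene, against 4 naïve-only. Its 3 primed SOX2 peaks had folds of 8.86, 5.65 and 3.65 and lay 422 kb, 143 kb and 437 kb into the gene. The first and second fell in primed-only regions and the third in a common one. The composite element was found at the first (2 mismatches) and the third (1 mismatch). A common region 311 kb into EPHB1 held peaks of all 5 BAF lists, with folds of 4.71 for naïve BRG1, 4.4 for naïve BAF155, 4.22 for naïve BRM, 5.23 for primed BRG1 and 5.97 for primed BAF155.

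EPHB2 and EPHB4 leaned the other way. EPHB2 had 17 naïve-only regions against 4 primed-only, and EPHB4 had 10 against 1. EPHB2 had no primed SOX2 peak, and EPHB4 had 1 (100836627 to 100836864, fold 5.15), in a common region 9.22 kb upstream. The EPHB2 naïve BRM peak of highest fold (22718924 to 22719073, fold 4.30) lay 8.16 kb into the gene in a naïve-only region. EPHB4 held 8 naïve BRM peaks, the most of any window, with the highest fold at 3.44, but 5 of them lay nearest to start sites of SLC12A9 and TRIP6 and not of EPHB4. Over all 9 windows, 26 of the 145 BAF regions lay nearest to a start site of another protein-coding gene.

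**Figure D3:**
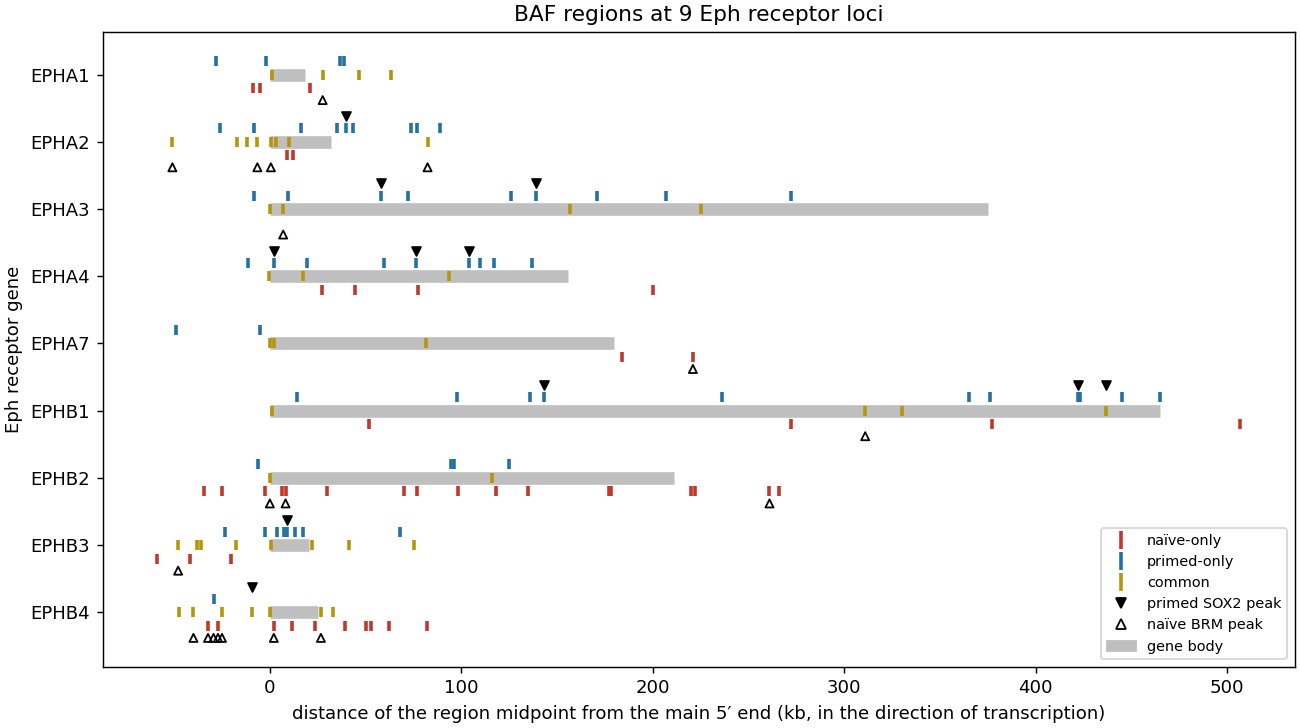
BAF regions at each locus against the distance of the region midpoint from the main 5′ end in kb (naïve-only in red below the gene, common in yellow on it, primed-only in blue above it), with regions that hold a primed SOX2 peak (filled triangles) or a naïve BRM peak (open triangles). SOX2 peaks outside BAF regions, 4 in all, are not drawn. All filled triangles but 2 stand over primed-only regions, and at EPHA2 the triangle is past the gene body.

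The windows were then compared by class of BAF region. A BAF region is a merged BRG1 or BAF155 peak, called naïve-only or primed-only where no region of the other state overlapped it by at least 25% of either. Of the 145 regions in the 9 windows, 57 were primed-only (39.3%, 95% interval 31.3 to 47.8), 45 naïve-only (31%, 23.6 to 39.2) and 43 common (29.7%, 22.4 to 37.8). Over the 106424 regions of the genome the shares were 28.5%, 45.4% and 26.1%. The primed-only share was above, and the naïve-only share below, that of the genome under each of the 12 alternative settings tried. Among these, placing regions by their midpoint gave the same shares as the main setting. With 100 kb on each side the primed-only interval (26.6 to 40.6) included the genome share of 28.5%. So did that at a fold of at least 4 (59.7 to 94.8, against 69.5%). Naïve-only regions outnumbered primed-only ones with 100 kb on each side (34.4% against 33.3%) and with BRG1 alone (54.2% against 24.1%). More primed-only than naïve-only regions were found at 6 of the 9 loci (EPHA1, EPHA2, EPHA3, EPHA4, EPHB1 and EPHB3), against 21.2% of all protein-coding windows. Regions of 1 window share their surroundings and are not replicates. EPHA2 was chosen for its primed-only site, and without it the count was 5 of 8.

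Per length, the windows of EPHA2 and EPHB3 held the most primed-only regions of the 9. The EPHA2 count includes the site on which the family was chosen, so its percentile is a description. EPHA2 held 5.93 primed-only regions per 100 kb and EPHB3 5.69, at the 99.7 and 99.6 percentiles of all protein-coding windows, whose median was 0.908 per 100 kb. EPHA4 followed with 3.26 and EPHA1 with 2.89, whereas EPHB1 and EPHA3, which had as many or more regions by number, held 1.88 and 1.82. EPHB4 and EPHA7 were the lowest, with 0.69 and 0.667. For naïve-only regions the order was headed by EPHB4 (6.90 per 100 kb, percentile 85.9) and EPHB2 (5.14, percentile 76), against a median of 2.42 for all windows, and EPHA2 held 1.32. Of the 9 primed-only regions at EPHA2, 8 came from BAF155 alone, and with BRG1 peaks alone its window held 2 primed-only and 3 naïve-only regions, the opposite direction. Among the primed-only regions at EPHB3, only those at 184558642 to 184559446 and 184568766 to 184569741 had a primed BRG1 peak, and the rest came from BAF155 alone.

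**Figure D4:**
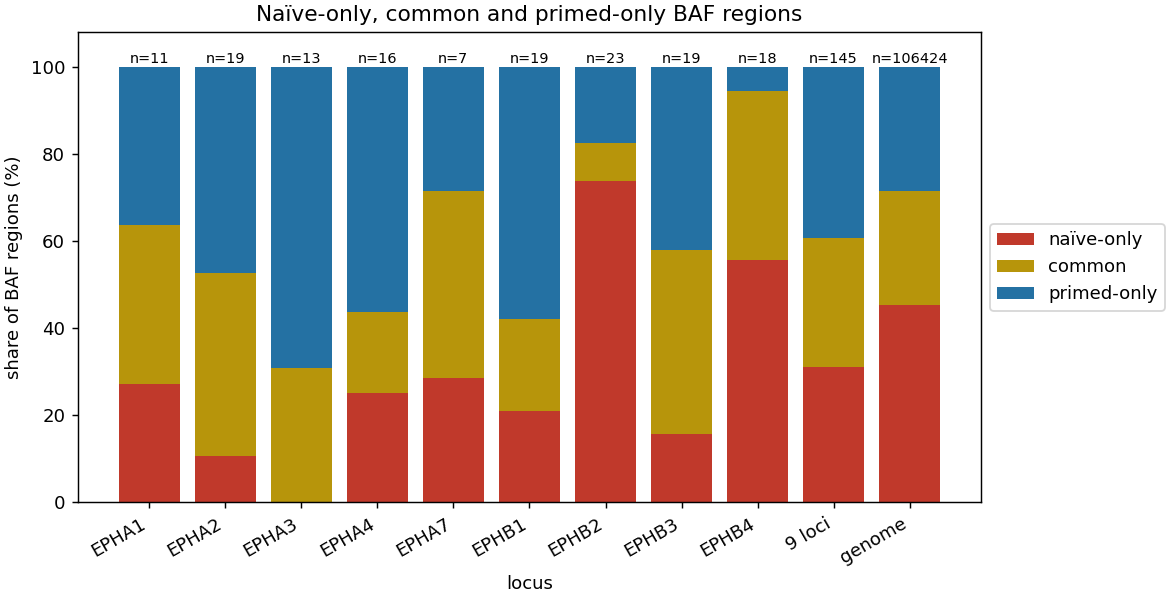
Share of naïve-only, common and primed-only BAF regions (%) at each locus, over the 9 loci and over the genome, with the number of regions above each bar. The primed-only share was 47.4% at EPHA2 and 69.2% at EPHA3, against 17.4% at EPHB2, 5.56% at EPHB4 and 28.5% over the genome.

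A primed-only BAF region with a primed SOX2 peak was not limited to EPHA2. It was found at 5 of the 9 loci (3 regions at EPHA4, 2 each at EPHA3 and EPHB1, 1 each at EPHA2 and EPHB3), against 19% of all protein-coding windows. EPHA2 is called by the choice of the family itself, and 4 of the 8 paralogues held such a region. The windows of EPHA4, EPHA3 and EPHB1 are 276, 495 and 585 kb long, and the 19% is not adjusted for length. Per length, primed SOX2 peaks were at percentile 97.4 of all protein-coding windows at EPHA4 and 93.2 at EPHB3. They were at 72.7 at EPHA2, 69.9 at EPHA3 and 65.7 at EPHB1. By share, 9 of the 57 primed-only regions held a SOX2 peak (15.8%, 7.48 to 27.9), close to the 13.4% of the genome. SOX2 was at 2 of the 43 common regions (4.65%, 0.568 to 15.8), where the genome share was 14%, and at 0 of the 45 naïve-only regions, which allows a share of up to 7.87%. Of the 15 SOX2 peaks, 9 (60%, 32.3 to 83.7) lay at primed-only regions, 2 at common regions and 4 outside BAF regions. The corresponding shares of all 9290 SOX2 peaks were 44.6%, 44.3% and 9.06%.

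The EPHA2 site was set beside those of its paralogues by place and height, as a description, since this site chose the family. Of the 9 primed-only regions with SOX2, 8 lay inside the gene and EPHA2 had the only one past a 3′ end. The gene body fills 31.7 of 152 kb of the EPHA2 window and 20.6 of 141 kb at EPHB3. It fills 375 of 495 kb at EPHA3, 156 of 276 kb at EPHA4 and 465 of 585 kb at EPHB1. The part of gene length in the contrast of place was not tested. The BAF fold at the EPHA2 site, 9.64, was the highest of the 57 primed-only regions, of which the next had 6.06. Its SOX2 fold of 36.8 was followed by 15.0 at EPHA4. The 15 SOX2 folds had a median of 6.51, near the list median of 6.73, and the highest at EPHA2, EPHA4, EPHA3 and EPHB3 ranked 2, 473, 632 and 744 of 9290.

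**Figure D5:**
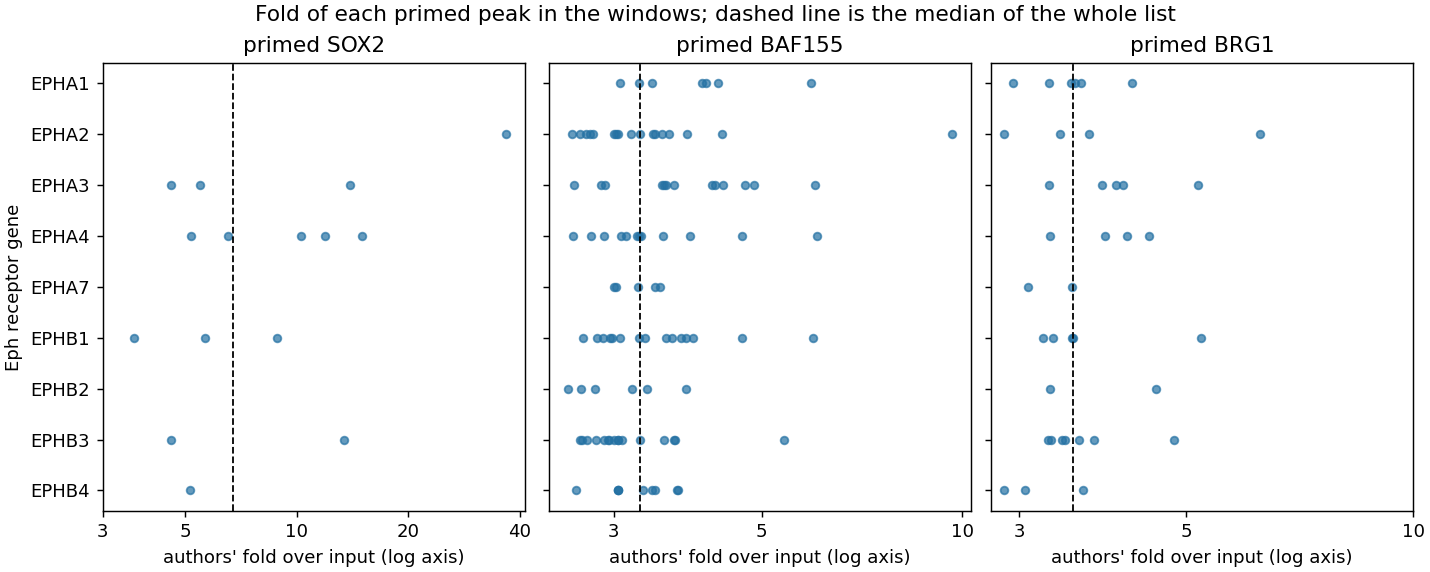
Authors' fold over input (log axis) of each primed SOX2, BAF155 and BRG1 peak in the 9 windows, 1 point per peak, with the median of the whole list as a dashed line. The EPHA2 points at 36.8, 9.64 and 6.26 are the highest in their panels, and most other points lie around the list medians of 6.73, 3.28 and 3.54.

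Primed-only regions with and without SOX2 also differed in their BAF peaks. Primed BRG1 was present at 7 of the 9 with SOX2 (77.8%, 40 to 97.2) and at 8 of the 48 without (16.7%, 7.48 to 30.2). Over the genome the shares were 41.4% of 4071 and 7.36% of 26264. The median fold was 4.67 with SOX2 and 3.07 without, against 3.96 and 3.12 over the genome, and the median widths were 754 bp and 365 bp. The part of width in this difference was not tested. The 9 regions with SOX2 include the EPHA2 site that chose the family. That site has a primed BRG1 peak, the highest fold (9.64) and a width of 754 bp. The values with SOX2 are thus a description and were not recomputed without it.

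The 5′ ends of the receptor genes were covered by peaks of both states, except that no naïve peak covered that of EPHB3. A common BAF region, which joins overlapping naïve and primed regions, lay over the main 5′ end of all 9 genes, against 58.3% of protein-coding genes. Primed BAF155 covered the 5′ end itself at all 9 and naïve BRG1 at 8, all but EPHB3, against 61.8% and 45.7% of protein-coding genes. Naïve BAF155 covered 6 (45.9% of protein-coding genes) and primed BRG1 3 (EPHA1, EPHA2 and EPHB2, against 17%). Naïve BRM covered that of EPHB2 alone (6.79%), and no SOX2 peak covered any (0.943% for primed SOX2 and 0.0349% for naïve SOX2). State-specific regions lay elsewhere, with 35 of the 57 primed-only regions in introns, 15 intergenic, 6 within 1 kb of an annotated start site and 1 in an exon. Of the 45 naïve-only regions, 24 were in introns, 11 intergenic, 9 within 1 kb of an annotated start site and 1 in an exon. The placement of regions over the genome was not counted.

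Naïve BRM was found in each class of region. It was present at 12 of 43 common regions (27.9%, 15.3 to 43.7) and at 6 of 45 naïve-only regions (13.3%, 5.05 to 26.8), against 32% and 14.2% over the genome, and at 1 of 57 primed-only regions, a promoter of SLC12A9 in the EPHB4 window. The intervals of the common and naïve-only shares overlap. Naïve-only regions with BRM were found at EPHB2, EPHB4 and EPHA7, or 3 of 9 loci, against 44.2% of all windows.

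The sequence of the regions was searched for short motifs in the central 200 bp of each, on both strands. Of 57 primed-only regions, 19 held the SOX core (33.3%, 21.4 to 47.1), as did 9 of 45 naïve-only regions (20%, 9.58 to 34.6), against 34.9% and 22.3% of such regions in the genome. The composite element, whose matches can overlap a SOX core, was in 4 of 57 primed-only regions (7.02%, 1.95 to 17), with 1.92% in the genome, and 3 of these 4 were in EPHB1. The KLF motif (GGGCGGGGC, GGGCGTGGC, GGGTGGGGC or GGGTGTGGC) was in 0 of 57 primed-only regions, which allows up to 6.27%, and in 4 of 45 naïve-only regions (8.89%, 2.48 to 21.2), against 1.59% and 5.52%. The ZIC motif (CCTGCTG) was in 9 of 57 and 7 of 45 (15.8% and 15.6%), against 13.5% and 7.12%, and the TFAP2 motif (GCCNNNGGC) in 4 of 57 and 4 of 45 (7.02% and 8.89%), against 6.21% and 10.7%. In the 15 SOX2 peaks the SOX core was found in 10 (66.7%, 38.4 to 88.2), with 59.5% over the list. The median share of G and C in the central 200 bp was 46.5% in primed-only and 53% in naïve-only regions, against 45.5% and 49.5% over the genome. The part of base composition in these motif counts was not tested. A match of letters is a description and not a measured site.

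The rest of the pathway was counted by lists. Of the other 5 Eph receptors (EPHA5, EPHA6, EPHA8, EPHA10 and EPHB6), 1, EPHA6, held a primed-only region with SOX2, near the 19% of all windows, and they had 18 primed-only and 11 naïve-only regions. Windows with more naïve-only regions were not counted over all protein-coding genes. Their median window held 2.42 naïve-only and 0.908 primed-only regions per 100 kb. A lean to naïve-only regions in the lists below is therefore not read as a trait of them. Of the 5 ephrin-A ligand genes, 4 had more naïve-only regions and EFNA5 had 29 primed-only regions against 4, with SOX2 at 4 of the 29. The windows of EFNA1, EFNA3 and EFNA4 overlap one another and share regions. The 3 ephrin-B ligand genes had 10 primed-only and 8 naïve-only regions and none of the former held SOX2. Of 14 effectors and modulators of Eph signalling (such as VAV2, TIAM1 and the ephrin-cleaving protease ADAM10), 11 had more naïve-only regions, and 3 (FYN, KALRN and VAV3) had more primed-only ones, near the 21.2% of all windows. A primed-only region with SOX2 was held by 4 of the 14 (FYN, KALRN, SIPA1L1 and VAV3), against 19% of all windows. Expression was not measured here. By peaks, all 6 loci of naïve-state genes such as KLF17 and DPPA5 had more naïve-only regions, and all 5 loci of primed-state genes such as ZIC2 and SFRP2 had more primed-only regions. This is no independent check of the labels, since TFAP2C, SALL1 and PTPRZ1 among them are example loci of the study on these data.

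By likeness over the 7 lists, measured as the distance between log2 peaks per 100 kb (0.5 added), the windows nearest to EPHA2 were those of RNASE7 (0.678), H6PD (0.737) and C1QL2 (0.806). Within the family EPHB3 (1.83) and EPHB4 (1.86) were nearest and EPHA3 (4.54) farthest. The distance does not use the class of region, and EPHB4 held 10 naïve-only and 1 primed-only regions against 2 and 9 at EPHA2. The windows of EPHA2, EPHB3 and EPHB4 are 152, 141 and 145 kb long, and that of EPHA3 is 495 kb. The part of window length in this order was not tested.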

How the data were processed

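ChIP-seq peak lists of WIBR3 cells were used as deposited. Per the methods of the study, the authors trimmed reads with trim_galore, mapped them to hg38 with bowtie2 (2.3.4 per the submitters' notes), removed duplicates and called peaks with MACS2 against input, narrow for SOX2 and broad for BAF subunits. Reads of the mouse feeders were not removed by any step described. The deposited lists give positions and, except for primed BRM and the second SOX2 list of each state, the authors' score, fold over input on a linear scale (a ratio), and p- and q-values as −log10. The score was not used, and the fold and −log10 q served to rank, filter and describe peaks within a list.

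Autosomal, X and Y peaks were placed in gene windows by any overlap (Python 3.11.15, pandas 2.3.3, pysam 0.24.0). BRG1 and BAF155 peaks of a state were merged, and regions overlapped where at least 25% of either was covered. The main 5′ end is that of the canonical transcript, and a promoter is within 1 kb of an annotated start site. The overlap, window and motif steps were tested on simulated data. No test was run, because each group has 1 distinct peak list. Every count of all protein-coding genes is a description.

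The 9 genes and the lists of ephrins, effectors and state genes were chosen with earlier results of these data known. The text names all 9 members, each SOX2 site of EPHA2, the strongest SOX2, BRM and state-specific BAF sites elsewhere, the pathway lists and the 3 windows most like EPHA2. Further sites of the windows (weaker SOX2 peaks, the EPHB1 region with all BAF lists) were named after their values were seen. Alternatives covered the window, overlap, thresholds, antibodies, list length and placement.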

Additional observations from a re-analysis of the deposited data

How the results depend on the processing

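Of 91 values recomputed under alternative settings, 61 stayed within 1.5 times the count given, or within the 95% interval of the share given, and 30 moved. Placing regions by their midpoint, which is among these settings, changed no value. Loci with a primed-only BAF region and SOX2 numbered 5 of 9 in all but 4 settings (overlap of 50% of both regions, BRG1 alone and equal list lengths, each 4, and a fold of at least 4, with 3). Leaving out either SOX2 list gave 5 to 5, which the identical lists fix, so these are not counted. The primed-only share (39.3%) became 61.9% at a −log10 q of at least 3, 81.8% at a fold of at least 4, 24.1% with BRG1 alone, 48.9% with BAF155 alone and 49.6% with lists of equal length. The genome share under the same settings was 44.5%, 69.5%, 8.37%, 35.4% and 37.1%. The naïve-only share (31%) became 17.5%, 13.6% and 54.2% under the first 3 of these. Naïve BRM peaks (20) became 10 with 20 kb and 31 with 100 kb on each side, 3 by q, 4 by fold and 11 when only those nearest to a start site of the gene were kept. Naïve-only regions with BRM (6) became 2 with 20 kb, 2 with an overlap of 50% of both, 0 by q, 0 by fold and 3 nearest to the gene. Primed-only regions at EPHA2 (9) became 5 with 20 kb, 14 with an overlap of 50% of both, 2 by fold, 2 with BRG1 alone (against 3 naïve-only) and 5 nearest to the gene. Naïve-only regions at EPHA2 (2) became 5 with 100 kb, 1 with an overlap of 1 bp, 7 with an overlap of 50% of both and 1 by fold. The SOX core share of primed-only regions (33.3%) became 50% with BRG1 alone and 56.1% over the whole region. Wider windows and longer sequences add, and stricter thresholds and narrower windows remove, peaks or matches by construction. A stricter overlap rule can only turn common regions into state-specific ones, also by construction. The cause of the other shifts was not tested. The setting that kept regions nearest to the gene was chosen after seeing the data. No paired analysis was possible because both SOX2 lists of a state were identical and no comparison was tested. Replicate spread is unknown and the study's read totals were not used.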
